A study of Arabidopsis with 14 samples.

Results

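The genes described here are the cytochrome P450 monooxygenases of Arabidopsis thaliana that the deposited tables list under a systematic CYP name, leaving aside 11 P450 names of glucosinolate synthesis and abscisic acid breakdown. Of the 37980 genes listed, 225 carry such a name, and 129 of the 214 that remained after the exclusion reached at least 1 FPKM (fragments per kilobase of transcript, scaled to the mapped fragments of the library, hence a level per transcript length) in at least 2 of the 14 libraries. The other 85 stayed under that minimum, and 10 of those were listed at 0 in every library. The 129 genes belong to 32 families and 44 subfamilies, of which CYP71B with 22 genes, CYP705A with 20 and CYP71A with 8 were the largest. In the whole series 21083 genes reached the same minimum. The last names outside the minimum were CYP86C2, CYP71A14 and CYP98A8, whose second-highest values were 0.951, 0.817 and 0.803 FPKM, and the first inside it were CYP705A6, CYP705A28 and CYP82G1, with 1.02, 1.14 and 1.17 FPKM.

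RNA came from whole seedlings of the Columbia accession at 10 days, grown in 8 h of light and 16 h of dark. The 7 groups, each of 2 libraries, were AtC3H3 OX, AtC3H26 OX and wild type (WT) with 150 mM NaCl, the same 3 genotypes without NaCl, and a further untreated WT set; the WT sets are called set 2 and set 1 here, and both together form the untreated WT group of 4 libraries. AtC3H3 OX and AtC3H26 OX are named for overexpression of a CCCH zinc-finger gene and of its paralog. For AtC3H3 OX the methods describe a modified CaMV 35S promoter, an active promoter in most plant cells, an HA tag at the N terminus and homozygous T3 plants from 3 independent lines, without saying which line was sequenced; the making of AtC3H26 OX is not described. The NaCl libraries of WT and AtC3H3 OX were described as RNA from 1, 2 and 4 h of treatment combined, so that time courses cannot be read from them. Nothing says whether the paired libraries came from separate cultures, and p-values measure only the spread between them.

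Cytochrome P450s are haem enzymes of the endoplasmic reticulum and, for a few families, of plastids. They insert an oxygen atom into hydrophobic substrates, using electrons from NADPH that a reductase partner hands on, ATR1 or ATR2 in Arabidopsis. They make and break hormones, hydroxylate the fatty acids of cutin and suberin, and build sterols, carotenoids, phenylpropanoids, triterpenes and defence compounds. Many subfamilies lie as tandem runs of closely related genes, and for the near-identical copies among them an estimate of FPKM can divide shared fragments between neighbours, so that single members of such runs carry that uncertainty.

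A check of the labels came first. Transcript levels of AtC3H3 (listed as F13M7.1) were 14.8 and 13.5 FPKM in NaCl-treated seedlings labelled AtC3H3 OX, against 20.7 and 23.0 FPKM in NaCl-treated WT. Those of AtC3H26 (listed as ZFN2) were 5.11 and 4.39 FPKM under the label AtC3H26 OX with salt, against 7.97 and 7.50 FPKM in salt-treated WT. In untreated seedlings AtC3H3 had 4.204 and 4.86 FPKM under its own label, against 5.37 to 6.46 FPKM in WT, and AtC3H26 had 2.51 and 2.34 FPKM under its own label, against 2.57 to 3.53 FPKM in WT, and neither difference passed (limma, adjusted p = 0.40 and 0.48). Both transcripts were thus lower in the NaCl libraries labelled as overexpressing them (limma, log2 fold changes of -0.59 and -0.60, adjusted p = 0.025 and 0.029), and every direction given below for a line is that of the libraries labelled so. Salt markers summed to between 2520 and 3485 FPKM with NaCl, against between 243 and 385 FPKM without. The 9 shoot markers were high throughout (sums of 22129 to 30983 FPKM), and of 10 root markers listed, 7 were found once in the tables. The replicate libraries of a group correlated over the 129 genes at between 0.992 and 0.997 (Pearson's r, across genes, which are not independent). Sequencing depth is unknown from the tables, which hold no counts.

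P450 levels spread widely: the median over the 129 genes was 5.91 to 6.32 FPKM in the NaCl libraries and 4.10 to 5.15 FPKM in the untreated ones, and by the mean over all 14 libraries 64 genes averaged under 5 FPKM and 25 averaged 20 FPKM or more. Of the 129, 94 reached 1 FPKM in all 14 libraries. Together they summed to between 2154 and 2350 FPKM in the 6 NaCl libraries, 0.304% to 0.329% of all FPKM, against between 1396 and 1545 FPKM in the 8 untreated libraries, 0.204% to 0.231% of all FPKM. The NaCl and untreated sums did not overlap. Most of the increase sat in few genes: the 6 largest rises made up 58.2% of the summed rises in AtC3H3 OX, 55.4% in AtC3H26 OX and 60.8% in WT, and CYP94B3, CYP72A15, CYP86A2, CYP81D11 and CYP71B26 were among those 6 each time. Shoot markers moved with the treatment too, between 22129 and 23530 FPKM with NaCl against between 28515 and 30983 FPKM without; their part in the P450 changes was not tested, and in whole seedlings fewer cells of a type and less RNA per cell cannot be told apart.

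The NaCl comparisons asked which P450 genes answered salt in each genotype. In AtC3H3 OX, 85 of the 121 genes tested were called, 49 higher and 36 lower, or 70.2%, beside 61.3% of all genes tested in that comparison, of which 31.4% were higher and 29.9% lower (limma on log2(FPKM + 1), adjusted p under 0.05). In AtC3H26 OX, 91 of 124 were called, 45 higher and 46 lower, or 73.4% beside 55.6% of all genes (29.2% higher and 26.4% lower). In WT, 80 of 126 were called, 40 higher and 40 lower, or 63.5% beside 51.1% of all genes (25.6% higher and 25.5% lower). When either WT NaCl library was left out, fewer P450 genes and fewer of all genes were called in WT. Of the calls in AtC3H3 OX, AtC3H26 OX and WT, 13, 12 and 15 were of genes that reached 1 FPKM in only 1 of the groups compared. Such genes had to differ to be tested. Among them were CYP71A12, CYP71B36, CYP76C2, CYP81G1 and CYP89A6 in every genotype, CYP94B3 and CYP71A25 in both lines, and CYP705A12 in AtC3H3 OX. CYP702A5 was one in AtC3H26 OX and WT, and CYP96A9 in AtC3H3 OX and WT. Without such genes 67.3%, 71.8% and 60.7% were called in AtC3H3 OX, AtC3H26 OX and WT. The shares of all genes were not counted without them, so these shares have no like background. The 3 comparisons share no library. With every tested gene counted, the share of falls in AtC3H3 OX was close to that of all genes, and the other shares were above it. Of the 119 genes tested in all 3, 35 rose in each (29.4%, beside 20.9% of all genes), 27 fell in each (22.7%, beside 17.4%), none was called in opposite directions and 15 were called nowhere. The shares stood above those of all genes mainly among large rises: 16 genes rose by a log2 fold change over 1 in each comparison (13.4%, beside 6.28% of all genes), whereas CYP71B7 alone fell by that much in each (0.84%, beside 2.45%). Among the 16, CYP76C2 and CYP81G1 in every genotype and CYP94B3 in both lines reached 1 FPKM only with NaCl and had to differ to be tested.

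**Figure D1:**
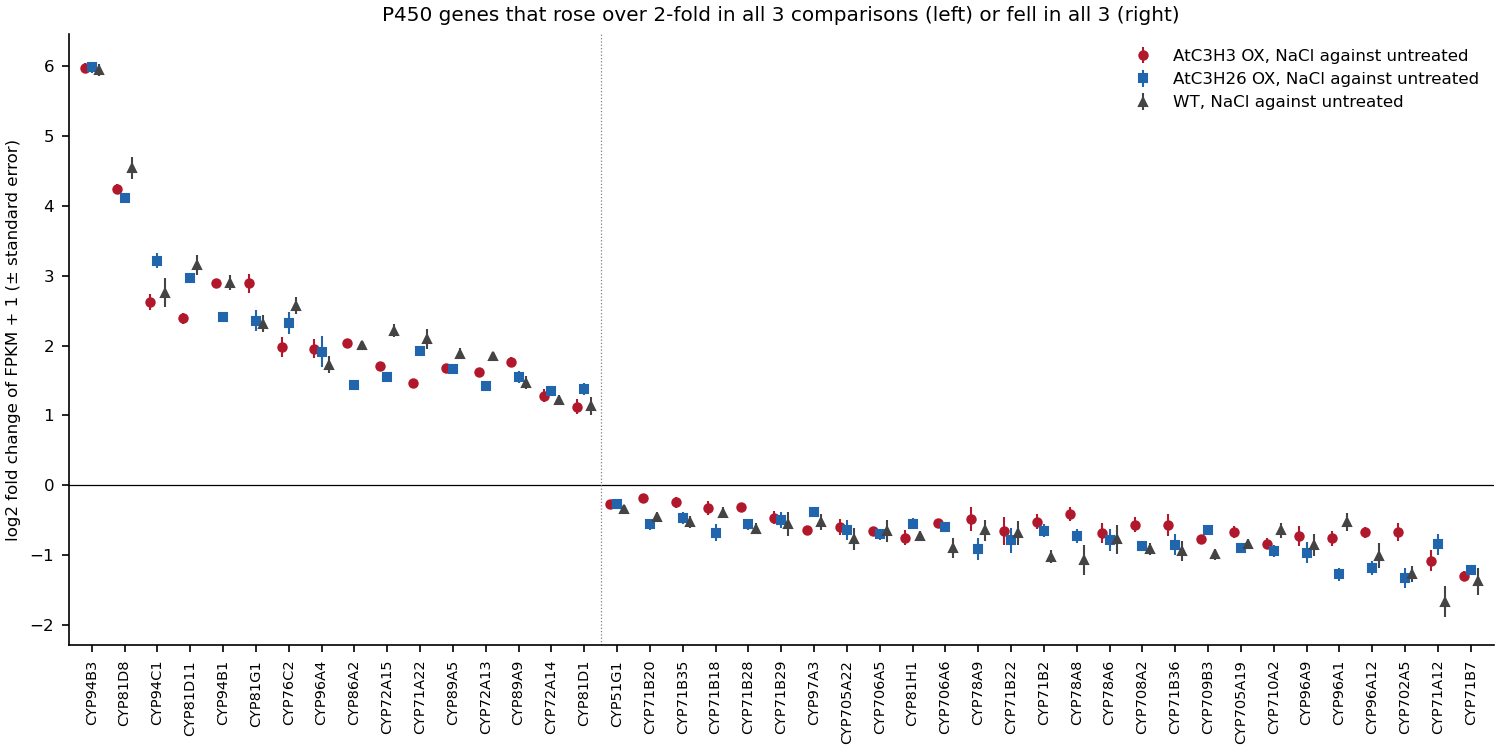
The plot of NaCl fold changes shows the log2 fold change of FPKM + 1 with its standard error (vertical axis) for the 16 P450 genes that rose by more than 1 in all 3 comparisons and the 27 that fell in all 3 (horizontal axis), in AtC3H3 OX (circles), AtC3H26 OX (squares) and WT (triangles). CYP94B3 stands at about 6 in each genotype, while no fall is larger than that of CYP71A12 in WT, -1.67.

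The largest rise was that of CYP94B3, a gene of the oxidation of jasmonoyl-isoleucine, the active form of jasmonate. CYP94B3 (AT3G48520, chromosome 3) and CYP94B1 (AT5G63450, chromosome 5) hydroxylate it, and CYP94C1 (AT2G27690, chromosome 2) oxidises the product further to a carboxylic acid, which ends its signal. All 3 rose in all 3 genotypes, CYP94B1 and CYP94C1 by less than CYP81D8. CYP94B3 had 112 and 118 FPKM in AtC3H3 OX with NaCl, 114 and 107 FPKM in AtC3H26 OX with NaCl, and 119 and 121 FPKM in salt-treated WT. Without NaCl it had 0.885 and 0.789 FPKM in AtC3H3 OX, 0.678 and 0.837 FPKM in AtC3H26 OX, and 1.05, 0.864, 1.02 and 0.910 FPKM in the 4 WT libraries. Every NaCl library thus lay far above every untreated one, and the group means differed 137-fold in AtC3H3 OX, 146-fold in AtC3H26 OX and 125-fold in WT. On the log2(FPKM + 1) scale, which understates the change of a gene that starts near 1 FPKM, the fold changes were 5.98, 5.99 and 5.95 (standard errors 0.07, 0.08 and 0.08; limma, adjusted p = 2.5e-07, 3.8e-06 and 4.7e-07). These were the largest log2 fold changes of any of the 129 genes in each genotype. In AtC3H3 OX and AtC3H26 OX the gene reached 1 FPKM only with NaCl. It had to differ to be tested there, so its NaCl changes in these lines are a description. Under NaCl the gene differed from WT by -0.06 in AtC3H3 OX and by -0.12 in AtC3H26 OX, neither of which passed (limma, adjusted p = 0.45 and 0.19).

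CYP94B1 had 42.8 and 44.5 FPKM in AtC3H3 OX, 44.9 and 43.1 FPKM in AtC3H26 OX, and 48.6 and 48.9 FPKM in WT with NaCl, against 4.89 and 5.15 FPKM, 7.91 and 7.09 FPKM, and 4.87 to 6.43 FPKM in the untreated libraries of the same genotypes. The log2 fold changes were 2.89, 2.41 and 2.90 (limma, adjusted p = 1.2e-06, 1.2e-05 and 4.6e-06). CYP94C1 reached 10.4 and 11.2 FPKM in AtC3H3 OX, 17.8 and 16.7 FPKM in AtC3H26 OX, and 13.1 and 13.5 FPKM in WT with NaCl, against 0.671 to 1.74 FPKM over all 8 untreated libraries. Its log2 fold changes were 2.62, 3.22 and 2.76 (limma, adjusted p = 1.3e-05, 1.4e-05 and 8.8e-05), so that no NaCl library overlapped an untreated one for either gene. CYP94B2, the remaining CYP94B gene, was low throughout, from 0.139 to 1.44 FPKM, and was not called where it was tested.

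**Figure D2:**
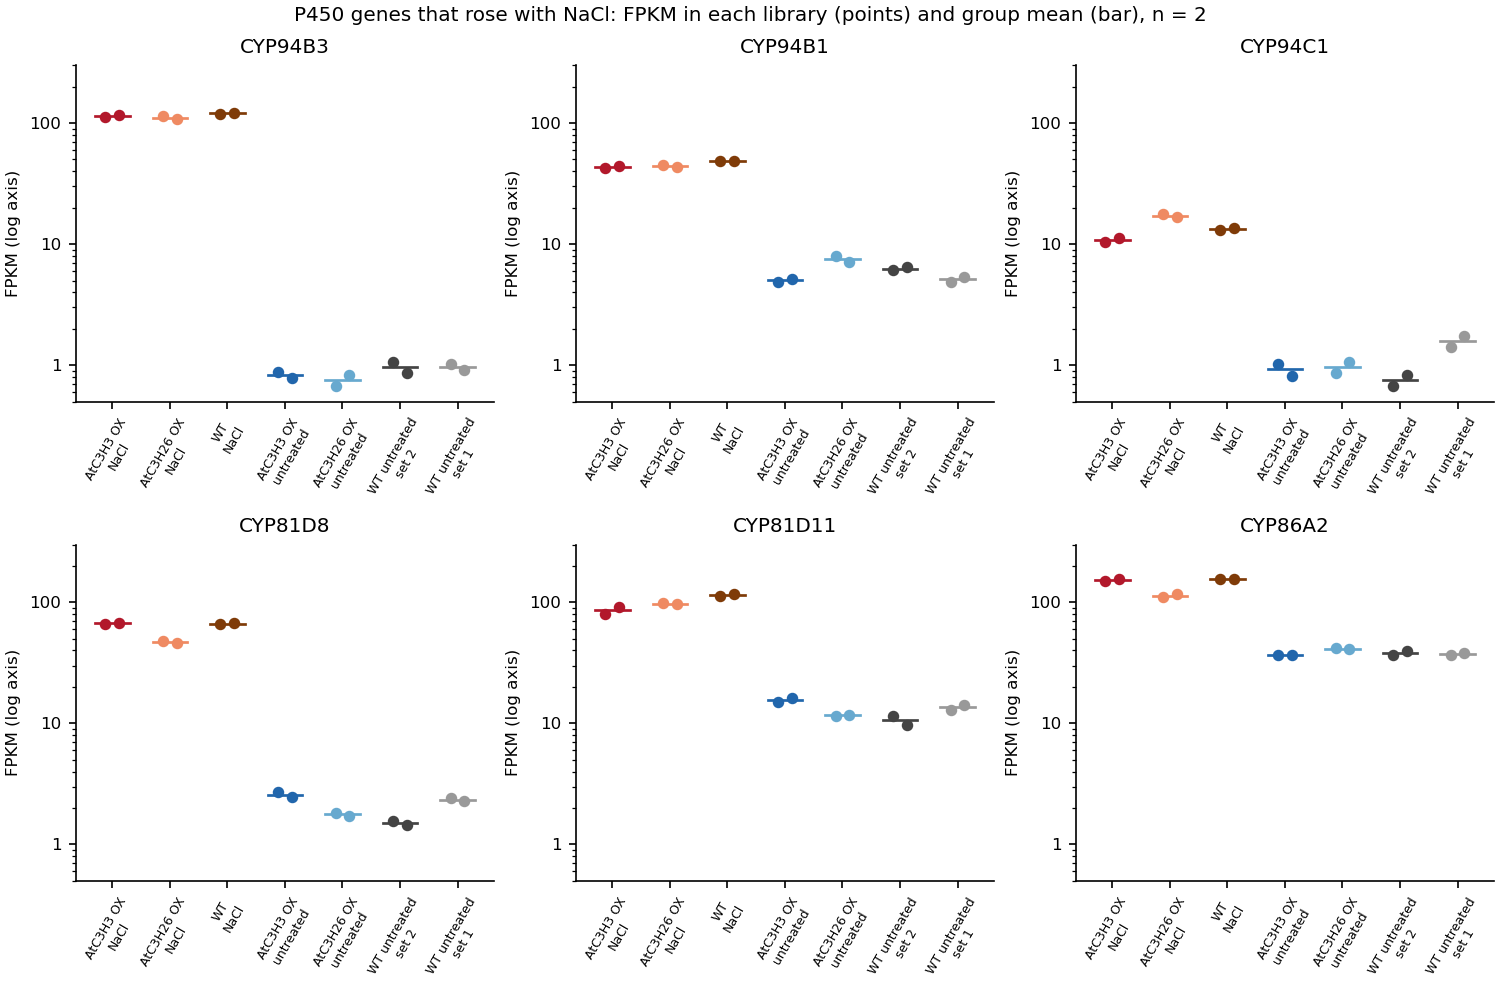
The plot of salt-induced genes shows FPKM on a log axis (vertical) in every library (points) with the mean of each group of 2 (bars), by group (horizontal), for the 3 jasmonoyl-isoleucine oxidases, CYP81D8, CYP81D11 and CYP86A2. In each panel the 6 NaCl libraries lie above the 8 untreated ones, by the widest margin for CYP94B3.

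Among genes tied to stress and detoxification, CYP81D8 (AT4G37370, chromosome 4) came next. It had 66.1 and 67.5 FPKM in AtC3H3 OX, 47.7 and 46.2 FPKM in AtC3H26 OX, and 65.6 and 67.3 FPKM in WT with NaCl, against 1.44 to 2.73 FPKM in the 8 untreated libraries. The log2 fold changes were 4.24, 4.11 and 4.55 (limma, adjusted p = 5.4e-07, 3.8e-06 and 3.5e-06). CYP81D11 (AT3G28740, chromosome 3), a gene known to be switched on by foreign chemicals and by cis-jasmone, had 80.3 and 92.1 FPKM in AtC3H3 OX, 98.3 and 96.2 FPKM in AtC3H26 OX, and 113 and 117 FPKM in WT with NaCl, against 9.72 to 16.3 FPKM without NaCl, and its log2 fold changes were 2.39, 2.96 and 3.16 (limma, adjusted p = 5.2e-06, 3.8e-06 and 8.0e-06). The CYP81D genes did not move as a block: 4 of 6 rose in each genotype, while CYP81D3 was called in none and CYP81D4 only in AtC3H26 OX, where it fell (log2 fold change of -0.34). CYP81G1 (AT5G67310, chromosome 5) went with the large rises, with 7.26 and 6.35 FPKM in AtC3H3 OX, 4.14 and 4.82 FPKM in AtC3H26 OX, and 4.47 and 4.12 FPKM in WT with NaCl, against at most 0.140 FPKM in any untreated library and a value listed as 0 in one untreated library each of AtC3H26 OX and WT set 1. Its log2 fold changes were 2.89, 2.36 and 2.32 (limma, adjusted p = 1.8e-05, 0.00014 and 1.8e-05). In every genotype CYP81G1 reached 1 FPKM only with NaCl and so had to differ to be tested, and its values are a description.

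CYP709B3 (AT4G27710, chromosome 4), whose loss is known to make seedlings more sensitive to salt, moved the other way. It had 16.6 and 17.1 FPKM in AtC3H3 OX, 19.6 and 18.4 FPKM in AtC3H26 OX, and 17.0 and 14.7 FPKM in WT with NaCl, against 29.9 and 29.2 FPKM, 31.3 and 29.2 FPKM, and 30.7 to 33.9 FPKM in the untreated libraries of the same genotypes. No library overlapped, and the log2 fold changes were -0.77, -0.64 and -0.99 (limma, adjusted p = 7.4e-05, 0.00077 and 0.00011). CYP89A9, an enzyme of chlorophyll breakdown that oxidises chlorophyll catabolites, rose with the 3 other CYP89A genes expressed, a subfamily in which 4 of 4 rose in every genotype. It had 21.7 and 22.6 FPKM in AtC3H3 OX, 20.9 and 19.7 FPKM in AtC3H26 OX, and 17.6 and 18.7 FPKM in WT with NaCl, against 5.37 to 6.64 FPKM untreated, and CYP89A5 stood higher still, at 62.8 to 77.9 FPKM with NaCl against 18.7 to 22.4 FPKM without. The subfamily's log2 fold changes ran from 0.74 to 1.76 in AtC3H3 OX, from 0.88 to 1.66 in AtC3H26 OX and from 0.61 to 1.88 in WT. The lowest in AtC3H3 OX and in WT were those of CYP89A6. In every genotype CYP89A6 reached 1 FPKM only with NaCl and had to differ to be tested, so its changes are a description.

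Of the monoterpene and homoterpene list, 3 genes were expressed. CYP76C2 (AT2G45570, chromosome 2), which oxidises the monoterpene alcohol linalool, had 3.25 and 3.63 FPKM in AtC3H3 OX, 4.79 and 5.36 FPKM in AtC3H26 OX, and 5.95 and 6.93 FPKM in WT with NaCl, against 0.0952 to 0.345 FPKM untreated. The log2 fold changes were 1.98, 2.33 and 2.57 (limma, adjusted p = 0.0001, 0.00016 and 1.4e-05), and the means differed between 23.5-fold and 27.5-fold. CYP76C2 too reached 1 FPKM only with NaCl in every genotype and had to differ to be tested, so these changes are a description. CYP76C1, its neighbour and a linalool oxidase too, was abundant without salt (31.6 to 44.5 FPKM) and rose in AtC3H3 OX and AtC3H26 OX by 0.49 and 0.33, with 0.24 in WT (limma, adjusted p = 0.00049, 0.0026 and 0.19). CYP82G1, the homoterpene synthase that makes volatile signals after herbivory, reached 1.55 and 1.17 FPKM in AtC3H26 OX with NaCl and at most 0.609 FPKM in any other library; it was listed at 0 in untreated AtC3H26 OX and in WT set 2, so no fold is given, and because it reached 1 FPKM in that group alone, its values are a description.

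P450 genes that lie side by side shared their direction in some runs and not in others. A run was counted where P450 genes of 1 family had at most 5 other genes between neighbours; 11 runs held at least 3 of the 129 genes, 53 in all. In the CYP72A run on chromosome 3, 5 of 6 rose in every genotype. CYP72A15 (AT3G14690) had 156 and 160 FPKM in AtC3H3 OX, 136 and 135 FPKM in AtC3H26 OX, and 199 and 206 FPKM in WT with NaCl, against 38.2 to 47.5 FPKM untreated. CYP72A13 (AT3G14660) had 94.4 and 98.8 FPKM, 88.2 and 86.5 FPKM, and 113 and 115 FPKM in the same NaCl libraries, against 29.9 to 32.1 FPKM untreated. Neither gene had overlapping groups, with log2 fold changes of 1.71, 1.54 and 2.21 for CYP72A15 and 1.62, 1.42 and 1.85 for CYP72A13 (limma, adjusted p of 1.4e-05 or lower in each). Between them and the rising CYP72A7 and CYP72A8 lies CYP72A11, at 48.5 to 53.9 FPKM with NaCl and 54.9 to 64.7 FPKM without, which fell in AtC3H3 OX and AtC3H26 OX by 0.22 and 0.32 on the log2 scale and had -0.17 in WT (limma, adjusted p = 0.0049, 0.0082 and 0.074).

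In the CYP81 run on chromosome 4, CYP81D8 rose while CYP81H1, the first gene of the run, fell in every genotype by 0.75, 0.55 and 0.72 on the log2 scale. CYP81F4, the last gene, rose by 1.23 and 0.60 in AtC3H3 OX and AtC3H26 OX and by 0.59 in WT (adjusted p = 0.037), where the call was lost in 7 of 13 alternatives, among them quantile normalization and leaving out either WT NaCl or either set 1 library. A run of CYP71B genes on chromosome 1 fell as a whole, 4 of 4 in each genotype. Within it CYP71B7 (AT1G13110) had 19.9 and 17.5 FPKM in AtC3H3 OX, 18.7 and 17.2 FPKM in AtC3H26 OX, and 14.9 and 15.2 FPKM in WT with NaCl, against 47.4 and 47.1 FPKM, 41.2 and 44.4 FPKM, and 32.8 to 50.2 FPKM in the untreated libraries of the same genotypes. These groups did not overlap, and the log2 fold changes were -1.29, -1.21 and -1.38 (limma, adjusted p = 2.9e-05, 9.5e-05 and 0.0012); the untreated WT sets themselves differed here, with 34.0 and 32.8 FPKM in set 2 and 48.6 and 50.2 FPKM in set 1. On chromosome 3, CYP71B26 (129 to 136 FPKM in AtC3H3 OX, 123 to 131 FPKM in AtC3H26 OX and 148 to 150 FPKM in WT with NaCl, against 57.6 to 73.2 FPKM untreated) rose by 1.16, 0.94 and 1.17 while CYP71B35 and CYP71B36 of the same run fell in every genotype. In the CYP71A run on that chromosome CYP71A22 (AT3G48310) had 27.5 and 27.8 FPKM in AtC3H3 OX, 31.2 and 29.3 FPKM in AtC3H26 OX, and 31.7 and 35.02 FPKM in WT with NaCl, against 5.59 to 9.79 FPKM untreated, and rose by 1.46, 1.92 and 2.09 (limma, adjusted p = 1.4e-05, 2.3e-05 and 5.4e-05). Its neighbour CYP71A21 rose less, by 0.64, 0.32 and 0.82, and CYP71A25 at the far side fell in AtC3H3 OX and AtC3H26 OX by 1.17 and 0.85 on the log2 scale, with -0.77 in WT (limma, adjusted p = 0.12). Over the whole CYP71B subfamily 5 rose and 13 fell of 22 in AtC3H3 OX, 5 rose and 13 fell in AtC3H26 OX, and 3 rose and 12 fell in WT.

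**Figure D3:**
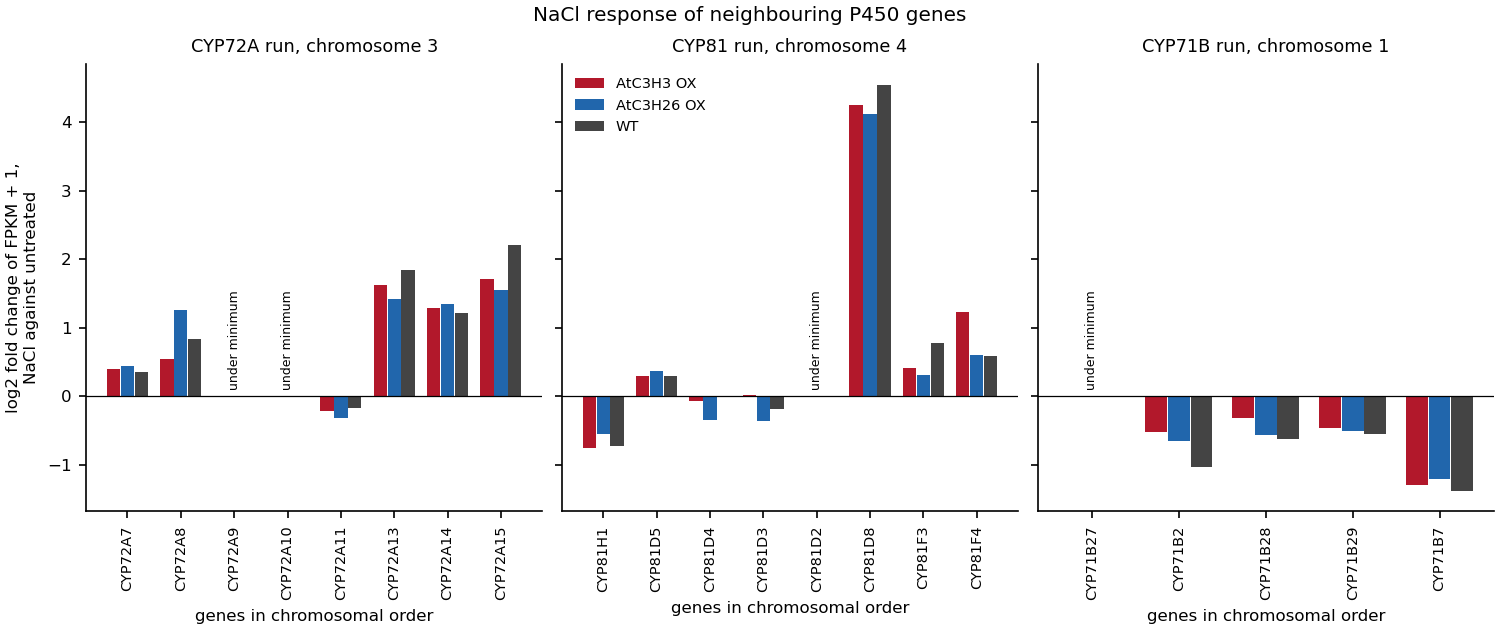
The plot of neighbouring P450 genes gives the log2 fold change of FPKM + 1, NaCl against untreated (bars, vertical axis), for the genes of 3 runs in chromosomal order (horizontal axis), in AtC3H3 OX, AtC3H26 OX and WT; genes under the FPKM minimum have no bar. CYP72A11 is the only bar group below 0 in the CYP72A run, and all bars of the CYP71B run on chromosome 1 are below 0.

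Of the 7 expressed genes of cutin, suberin and wax, 3 rose in each genotype, and 1, 2 and 1 fell in AtC3H3 OX, AtC3H26 OX and WT. CYP86A2 (AT4G00360, chromosome 4), a fatty acid omega-hydroxylase needed for normal cutin, had 151 and 157 FPKM in AtC3H3 OX, 110.04 and 116 FPKM in AtC3H26 OX, and 155 and 157 FPKM in WT with NaCl, against 36.7 to 41.8 FPKM untreated. The log2 fold changes were 2.04, 1.43 and 2.01 (limma, adjusted p = 8.5e-07, 1.8e-05 and 1.9e-06), with no overlap. CYP86A4, a further cutin hydroxylase, rose by 1.22, 0.63 and 0.92, and CYP86B1, which acts on very long chains for suberin, rose by 1.47, 1.07 and 0.83 (limma, adjusted p of 0.0051 or lower in each). CYP86A1, the main hydroxylase of root suberin, did not follow them: it had 8.75 and 8.11 FPKM in AtC3H3 OX, 7.56 and 7.98 FPKM in AtC3H26 OX, and 6.94 and 7.56 FPKM in WT with NaCl, against 6.98 and 7.68 FPKM, 9.75 and 9.49 FPKM, and 10.5 to 13.6 FPKM in the untreated libraries of the same genotypes. It fell in WT by 0.63 and in AtC3H26 OX by 0.28 on the log2 scale (limma, adjusted p = 0.0032 and 0.029), and had 0.18 in AtC3H3 OX (adjusted p = 0.12), the genotype with its lowest untreated level. The median log2 fold changes of the list were 0.21, -0.26 and -0.20.

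The falls were smaller and more spread out than the rises. CYP71A12 (AT2G30750, chromosome 2), which makes indole-3-acetonitrile from the oxime on the way to camalexin-type defence compounds and has a near-identical neighbour in CYP71A13, had 0.277 and 0.379 FPKM in AtC3H3 OX, 0.851 and 0.836 FPKM in AtC3H26 OX, and 0.139 and 0.355 FPKM in WT with NaCl, against 1.73 and 1.89 FPKM, 2.57 and 2.07 FPKM, and 1.80 to 3.72 FPKM untreated. No NaCl library reached an untreated one, and the log2 fold changes were -1.08, -0.85 and -1.67 (limma, adjusted p = 0.0016, 0.0052 and 0.0011). CYP71A12 reached 1 FPKM only without NaCl in every genotype and had to differ to be tested, so these changes are a description. CYP71B6, which processes indole-3-acetonitrile further, rose slightly in all 3 genotypes, by 0.45, 0.30 and 0.30. CYP702A5, at 0.671 to 1.34 FPKM with NaCl against 2.50 to 3.68 FPKM without, fell by 0.67, 1.33 and 1.27 on the log2 scale. In the CYP96A subfamily CYP96A1, CYP96A9 and CYP96A12 fell in each genotype while CYP96A4 rose in each, from 6.70 to 9.90 FPKM with NaCl against 1.05 to 2.60 FPKM untreated. Of the CYP705A genes tested, 3 rose and 3 fell of 17 in AtC3H3 OX, 2 rose and 8 fell of 18 in AtC3H26 OX, and 2 rose and 8 fell of 20 in WT. CYP705A19, at 11.0 to 15.03 FPKM with NaCl against 19.8 to 24.8 FPKM without, fell in all 3.

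P450s of hormone metabolism other than jasmonate changed less. CYP735A2 (AT1G67110, chromosome 1), which makes trans-zeatin, the active cytokinin form, had 11.9 and 11.7 FPKM in AtC3H3 OX, 12.004 and 12.4 FPKM in AtC3H26 OX, and 10.3 and 10.1 FPKM in WT with NaCl, against 3.10 and 4.53 FPKM, 5.56 and 5.59 FPKM, and 5.66 to 8.61 FPKM untreated. The NaCl levels lay close together and the untreated ones apart, and the log2 fold changes were 1.43, 1.00 and 0.42 (limma, adjusted p = 0.00045, 0.00024 and 0.054). CYP711A1, the strigolactone gene MAX1, had 6.72 to 8.28 FPKM with NaCl and 6.001 to 9.98 FPKM without, and fell in AtC3H26 OX by 0.29 on the log2 scale (limma, adjusted p = 0.030), with -0.08 and -0.12 in AtC3H3 OX and WT, which were not called. Of the brassinosteroid genes listed under CYP names, CYP90D1, a synthesis enzyme, passed as a rise in AtC3H26 OX only (0.38, adjusted p = 0.035, with 0.32 and 0.45 at adjusted p = 0.052 and 0.10 in AtC3H3 OX and WT), and CYP72C1, an inactivating enzyme, rose in AtC3H3 OX and WT (0.49 and 0.50, adjusted p = 0.010 and 0.045), the WT call being lost in 8 of 13 alternatives, among them set 1 alone and leaving out either WT NaCl library. Of the expressed gibberellin genes, CYP88A3 was not called in any NaCl comparison. CYP714A1, at 0.367 to 0.923 FPKM in both lines, could be tested in WT only and was not called there.

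A further 15 P450 genes appear in the tables under other names and were counted apart; FAH1 among them names 2 rows and was not used. Of 12 tested in each comparison, 7 rose and 3 fell in AtC3H3 OX, 5 rose and 3 fell in AtC3H26 OX, and 6 rose and 3 fell in WT. Among all genes 31.4% rose and 29.9% fell in AtC3H3 OX, 29.2% and 26.4% in AtC3H26 OX, and 25.6% and 25.5% in WT. HPL1 in every genotype and PAD3 in AtC3H3 OX, counted among the rises, reached 1 FPKM only with NaCl and had to differ to be tested. DWF4, the rate-limiting hydroxylase of brassinosteroid synthesis, rose by 0.86, 0.72 and 0.78 on the log2 scale, whereas BAS1, which inactivates brassinosteroids, fell by 1.24, 1.10 and 1.15. The other synthesis genes did not move as a block. BR6OX2 was called in AtC3H3 OX and WT (0.68 and 0.80), CPD in AtC3H3 OX and AtC3H26 OX (0.31 and 0.15), and ROT3 in no genotype. BR6OX1 was too low to be tested for NaCl, at 0.0283 to 0.314 FPKM with NaCl against 0.522 to 1.16 FPKM without. GA3, the ent-kaurene oxidase of gibberellin synthesis, rose by 0.69, 0.49 and 0.59, and KAO2, which acts after it, fell by 0.56, 0.29 and 0.40. Of the reductases, ATR2 rose by 1.06, 0.84 and 1.25, to 115 and 116 FPKM in AtC3H3 OX, 90.9 and 95.8 FPKM in AtC3H26 OX and 109.8 and 112 FPKM in WT with NaCl, against 35.3 to 57.6 FPKM untreated, and ATR1 rose by 0.42, 0.47 and 0.24.

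The sterol genes did not move together. CYP710A1, which makes stigmasterol by desaturating the sterol side chain, rose by 1.04, 0.92 and 1.14, while its neighbour CYP710A2, a desaturase of the same kind, fell by 0.83, 0.94 and 0.65, and CYP51G1, the sterol 14-demethylase, fell by 0.27, 0.27 and 0.34. CYP710A1 had 8.53 to 12.2 FPKM with NaCl against 3.70 to 5.44 FPKM without, and CYP710A2 7.09 to 9.41 FPKM against 11.0 to 19.6 FPKM, with no overlap for either. CYP97A3, a carotenoid ring hydroxylase of plastids, fell by 0.65, 0.38 and 0.52, with 29.0 to 35.7 FPKM with NaCl against 36.9 to 48.4 FPKM without, while CYP97B3 was not called in any of the 3. CYP98A3, the hydroxylase that opens the way to lignin, rose by 0.29, 0.31 and 0.28, at 58.8 to 64.5 FPKM with NaCl against 48.4 to 56.2 FPKM without. CYP81F4, which modifies indole glucosinolates and was kept by the rule on names, was the most abundant of the 129 with NaCl, at 208 to 223 FPKM against 89.9 to 179 FPKM without.

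Members of the CYP78A subfamily, whose best-known gene KLUH (CYP78A5) keeps organs growing, mostly fell with NaCl: CYP78A6, CYP78A8 and CYP78A9 fell in each genotype, CYP78A7 was called higher in AtC3H3 OX alone (0.54, adjusted p = 0.034), where it reached 1 FPKM only with NaCl, and CYP78A5 was called nowhere. The same subfamily differed between the untreated WT sets, where 4 of 5 were higher in set 2. CYP78A8 had 23.0 and 19.7 FPKM in set 2, against 13.9 and 13.7 FPKM in set 1. CYP78A5 had 6.45 and 5.77 FPKM in set 2, against 2.93 and 3.87 FPKM in set 1, and CYP78A7 had 2.00 and 1.96 FPKM against 0.793 and 0.606 FPKM. None of these overlapped, with log2 fold changes of 0.59, 0.70 and 0.81 (limma, adjusted p = 0.014, 0.031 and 0.029). Of the WT sets, CYP78A7 reached 1 FPKM in set 2 only and so had to differ to be tested, and its value is a description.

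The labels tie neither WT set to a line, and what separates the sets is not stated. Of 119 genes tested between set 2 and set 1, 21 were called, 10 higher and 11 lower, or 17.6% beside 10.1% of all genes (2.81% higher and 7.32% lower). With quantile normalization the split was 13 higher and 6 lower, beside 869 higher and 1153 lower of all 19783 genes. Fewer P450 genes, and fewer of all genes, were called when either set 1 library was left out. Besides CYP78A genes, CYP77B1 (23.1 and 24.4 FPKM in set 2, against 15.3 and 15.5 FPKM in set 1) and CYP81F4 (179 and 169.9 FPKM against 118 and 121 FPKM) were higher in set 2. Lower in set 2 were, among others, CYP706A1, with 24.3 and 20.7 FPKM against 41.1 and 40.1 FPKM (log2 fold change of -0.83, limma, adjusted p = 0.0033), CYP71A25, with 0.720 and 1.10 FPKM against 3.18 and 2.48 FPKM (-1.005, adjusted p = 0.021), and CYP711A1, CYP71B7, CYP71B24, CYP71B12, CYP72A8 and CYP705A20. Of the WT sets, CYP705A20 reached 1 FPKM in set 1 only and so had to differ to be tested. Against set 1 alone 94 genes changed with NaCl in WT and against set 2 alone 83, of which 73 were called against both, all in the same direction; 71 of the 80 calls made against both sets together were called against each set.

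Under NaCl the lines were compared with the same pair of WT libraries. In AtC3H3 OX 6 of 117 genes were called, 2 higher and 4 lower, or 5.13% beside 2.67% of all genes (1.30% higher and 1.37% lower), and all 6 changes were smaller than 1 on the log2 scale. CYP76C2 showed the largest, with 3.25 and 3.63 FPKM against 5.95 and 6.93 FPKM in WT (log2 fold change of -0.74, standard error 0.12, limma, adjusted p = 0.037). CYP81D11, with 80.3 and 92.1 FPKM against 113 and 117 FPKM, and CYP72A15, with 156 and 160 FPKM against 199 and 206 FPKM, were lower too (-0.41 and -0.36), as was CYP72A13 (-0.23). CYP706A1, with 29.6 and 30.8 FPKM against 22.4 and 23.9 FPKM, and CYP71B20, with 20.9 and 19.4 FPKM against 15.6 and 15.2 FPKM, were higher (0.37 and 0.36); the untreated WT sets themselves differed in CYP706A1, as given above. Leaving out either WT NaCl library ended most of these calls, and most calls among all genes as well. Without AtC3H3 OX NaCl replicate 1 fewer P450 genes, and fewer of all genes, were called. With no filter on low values the count was 0 of 129 by limma (39 at an unadjusted p under 0.05), beside 24 higher and 32 lower of 26296 genes.

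In AtC3H26 OX with NaCl 18 of 117 genes were called against WT, 7 higher and 11 lower, or 15.4% beside 7.09% of all genes (2.55% higher and 4.54% lower). Quantile normalization gave 9 higher and 9 lower, beside 681 higher and 807 lower of all 19670 genes. CYP72A15, with 136 and 135 FPKM against 199 and 206 FPKM, had a log2 fold change of -0.58 (standard error 0.04, limma, adjusted p = 0.0037). CYP81D8, with 47.7 and 46.2 FPKM against 65.6 and 67.3 FPKM, had -0.49, and CYP86A2, with 110.04 and 116 FPKM against 155 and 157 FPKM, had -0.46 (adjusted p = 0.0067 and 0.0073). CYP715A1 (AT5G52400, chromosome 5), with 0.666 and 0.803 FPKM against 2.89 and 3.43 FPKM, reached 1 FPKM in WT only, so that its log2 fold change of -1.26 is a description. CYP706A2, CYP77B1, CYP710A1, CYP72A13, CYP89A5, CYP81D11 and CYP71B26 were lower as well. None of these groups overlapped. Salt markers moved with these genes: the 4 found summed to 2587 and 2520 FPKM in these AtC3H26 OX libraries, against 3374 and 3485 FPKM in salt-treated WT, and each had a lower mean in the line, such as LTI78 with 1829 FPKM against 2383 FPKM. Their part in the lower P450 levels was not tested.

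The higher genes in AtC3H26 OX with NaCl included CYP94C1, at 17.8 and 16.7 FPKM against 13.1 and 13.5 FPKM in WT (0.35, limma, adjusted p = 0.039), beside its partners CYP94B1 and CYP94B3 at -0.15 and -0.12, which were not called. CYP72A8, in the same run as CYP72A13 and CYP72A15, was higher at 14.1 and 13.9 FPKM against 8.74 and 8.77 FPKM (0.62, adjusted p = 0.0087). CYP81D1, at 10.2 and 10.4 FPKM against 7.37 and 6.303 FPKM (0.53, adjusted p = 0.033), was higher while CYP81D8 and CYP81D11 were lower. CYP96A4, CYP706A6 and the root triterpene genes CYP708A2 and CYP71A16 were higher as well. With the last pair, the triterpene synthase genes MRN1 (0.92, limma, adjusted p = 0.019) and THAS1 (0.29, adjusted p = 0.0498) were higher. The root markers summed to 1949 and 1938 FPKM in AtC3H26 OX, against 1781 and 1777 FPKM in WT. PYK10 made up most of that sum, with means of 1692 against 1515 FPKM (0.16, limma, adjusted p = 0.062). EXPA7 and RHD2 had 0.20 and 0.04, and BGLU21 and BGLU22 had -0.14 and -0.03. None of the root markers tested was called, and their part was not tested. Leaving out either WT NaCl library ended the P450 calls, and nearly all calls among all genes with them. Leaving out either AtC3H26 OX NaCl library gave fewer P450 calls, while calls among all genes rose. The fit with no filter on low values called 8 of 129, beside 224 higher and 453 lower of all 26364 genes.

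Without NaCl few P450 genes separated the lines from WT when both WT sets were used. In AtC3H3 OX 0 of 119 were called by limma, beside 0.0449% of all genes (0.0199% higher and 0.0249% lower), and 30 had an unadjusted p under 0.05; against set 1 alone 5 were called, all lower (4.39%, beside 2.46% of all genes), and against set 2 alone 36, of which 15 were higher and 21 lower (31.0%, beside 14.3% of all genes). The 4 called against both sets, CYP81F4, CYP705A5, CYP708A2 and CYP86A1, were lower in AtC3H3 OX. In AtC3H26 OX 1 of 120 was called, 0.833% beside 1.65% of all genes (0.828% higher and 0.823% lower), and 18 had an unadjusted p under 0.05. That gene, CYP87A2, had 5.73 and 5.13 FPKM in AtC3H26 OX, against 9.10, 9.48, 9.13 and 8.75 FPKM in the WT libraries (log2 fold change of -0.65, limma, adjusted p = 0.018). Its call ended when either untreated AtC3H26 OX library was left out, as did most calls among all genes.

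Of the 5 expressed genes of the triterpene list, none passed between untreated AtC3H3 OX and WT. Arabidopsis makes thalianol and marneral in roots from gene clusters, in which THAS1 and MRN1 cyclise the precursor and neighbouring P450 genes oxidise the product: CYP708A2 and CYP705A5 for thalianol on chromosome 5, CYP71A16 and CYP705A12 for marneral, elsewhere on that chromosome. CYP705A5 had 12.3 and 10.9 FPKM in untreated AtC3H3 OX, against 29.3 and 26.1 FPKM in set 2 of WT and 24.0 and 22.1 FPKM in set 1. CYP708A2 had 9.57 and 9.24 FPKM, against 16.1 and 16.7 FPKM in set 2 and 14.6 and 14.6 FPKM in set 1. The marneral genes lay lower in the same libraries, CYP705A12 with 0.514 and 0.838 FPKM against 1.25 to 2.999 FPKM in WT, and CYP71A16 with 1.74 and 2.03 FPKM against 3.45 to 4.55 FPKM. CYP705A1, the remaining gene of the list, had 2.79 and 2.84 FPKM against 2.48 to 3.51 FPKM in WT, so that its groups overlapped.

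The log2 fold changes against both sets were -1.06, -0.66, -0.91 and -0.78 for CYP705A5, CYP708A2, CYP705A12 and CYP71A16 and did not pass (limma, adjusted p = 0.062, 0.082, 0.29 and 0.13). Against set 2 alone all 4 passed, and against set 1 alone CYP705A5 and CYP708A2 did (adjusted p = 0.0093 and 0.016). THAS1 ran along, with 5.77 and 6.27 FPKM in untreated AtC3H3 OX against 9.83 to 14.5 FPKM in untreated WT, as did the 7 root markers, whose sum was 1417 and 1431 FPKM in untreated AtC3H3 OX, against 1771 to 1955 FPKM in untreated WT. PYK10 made up most of that sum, 6 of the 7 markers could be tested and had log2 fold changes from -0.57 to -0.27, and none of these passed. The part of the root markers in these differences was not tested. In untreated AtC3H26 OX the root sum was 2002 and 1989 FPKM. Of the root markers tested there against WT, only BGLU22 was called (0.61, limma, adjusted p = 0.020). PYK10 and BGLU21 had 0.10 and 0.04, and EXPA7, SHV2 and RHD2 had -0.14, -0.29 and -0.21. CYP708A2 had 20.8 and 22.2 FPKM in the same libraries and a log2 fold change of 0.45 (limma, adjusted p = 0.059).

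With NaCl the 2 pairs parted. CYP705A12 and CYP71A16 rose in all 3 genotypes, by 1.82, 1.19 and 0.99 and by 1.13, 0.54 and 0.34, whereas CYP708A2 fell in all 3, by 0.56, 0.88 and 0.91, and CYP705A5 fell in AtC3H26 OX and WT, by 0.48 and 0.71, and had -0.08 in AtC3H3 OX (adjusted p = 0.56). THAS1 did not follow its P450 partners: it rose by 1.17 and 0.53 in AtC3H3 OX and AtC3H26 OX and had 0.36 in WT (adjusted p = 0.086). The call for CYP705A12 in WT was lost without WT NaCl replicate 1, and that for CYP71A16 in WT (adjusted p = 0.048) was lost in 9 of 13 alternatives.

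**Figure D4:**
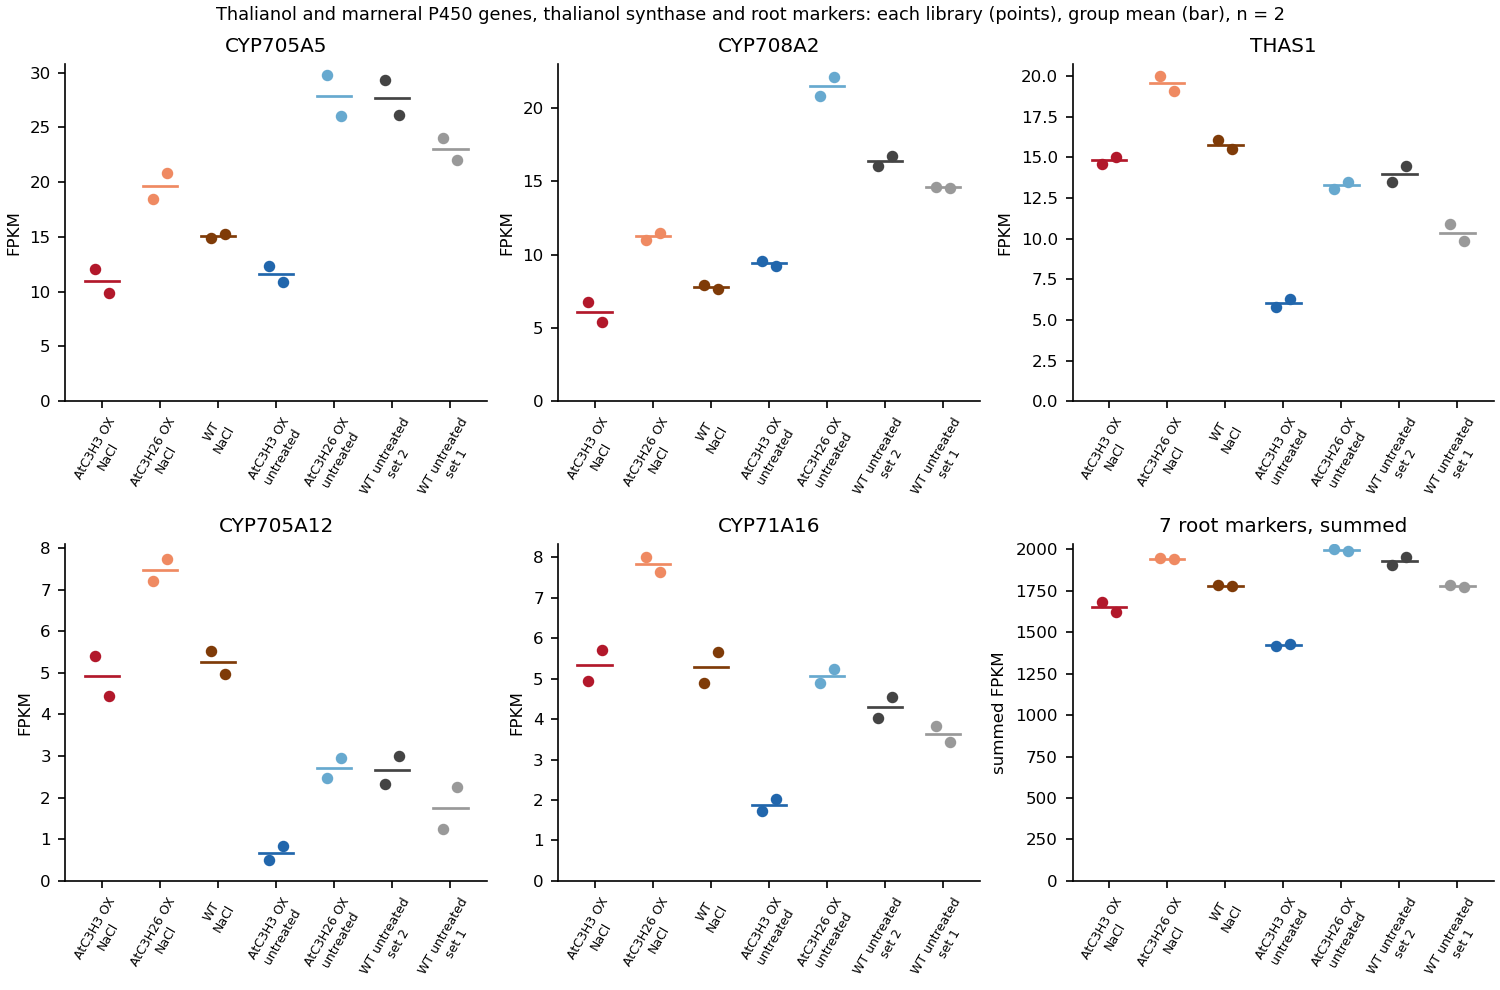
The plot of triterpene genes shows FPKM in each library (points; bars are means of 2) by group for the thalianol P450 genes CYP705A5 and CYP708A2 with THAS1 (upper row) and for the marneral P450 genes CYP705A12 and CYP71A16 with the summed FPKM of 7 root markers (lower row). The untreated AtC3H3 OX points are the lowest of the untreated ones in all 6 panels. None of the P450 genes shown passed between untreated AtC3H3 OX and both WT sets together.

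Whether the salt response itself differed from WT was asked with an interaction term. For AtC3H3 OX 0 of 127 genes passed, beside 0.0769% of all genes (0.0385% in each direction), with 32 at an unadjusted p under 0.05, and limma called 6 with set 1 alone as the untreated WT (4.84%, beside 2.77% of all genes) and 21 with set 2 alone (16.7%, beside 11.1%). For AtC3H26 OX 6 of 129 passed, or 4.65% beside 1.42% of all genes (0.671% higher and 0.752% lower), 5 with a smaller or more negative change in the line and 1 with a larger one. CYP86A2 had an interaction of -0.58 (standard error 0.08, limma, adjusted p = 0.012): its untreated level was 41.8 and 40.8 FPKM in AtC3H26 OX, against 36.8 to 39.4 FPKM in WT, and its NaCl level the lower one given above. For CYP72A15 and CYP72A13 the interactions were -0.67 and -0.42 (adjusted p = 0.044 and 0.030). CYP706A2 (AT4G22710, chromosome 4) had 2.82 and 2.44 FPKM with NaCl in AtC3H26 OX, against 4.44 and 5.40 FPKM in WT, but 0.973 and 1.90 FPKM without NaCl, against 0.0843 to 0.321 FPKM in WT, which gave -1.65 (adjusted p = 0.022). CYP715A1 was listed at 0 in all 4 untreated WT libraries and had 0.128 and 0.0757 FPKM in untreated AtC3H26 OX. Its interaction of -1.40 (limma, adjusted p = 0.012) depends on the added 1 FPKM. Of the groups in that test it reached 1 FPKM only in WT with NaCl, so the value is a description. AtC3H3 OX with NaCl, outside that test, had 1.60 and 2.43 FPKM. CYP71B23 had the opposite sign, at 6.01 and 5.73 FPKM with NaCl against 3.83 and 4.09 FPKM without in AtC3H26 OX, and 4.24 and 3.39 FPKM with NaCl against 4.49 to 5.24 FPKM without in WT (0.76, adjusted p = 0.047).

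All 6 were also called with each untreated WT set alone, in the same direction, among 18 calls with set 1 (14.2%, beside 10.3% of all genes) and 15 with set 2 (11.6%, beside 8.15%). The salt marker sum was lower in AtC3H26 OX than in WT with NaCl, as given for that comparison. It was lower without NaCl too, at 244 and 243 FPKM against 320 to 385 FPKM in untreated WT. The NaCl change of the markers was not compared between genotypes, and their part was not tested. Leaving out any 1 WT NaCl, AtC3H26 OX NaCl or untreated AtC3H26 OX library ended all or nearly all of the 6 calls. Most calls among all genes ended as well. With a pseudocount of 0.1 the count was 2 of 129, beside 119 higher and 103 lower of 20878 genes.

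**Figure D5:**
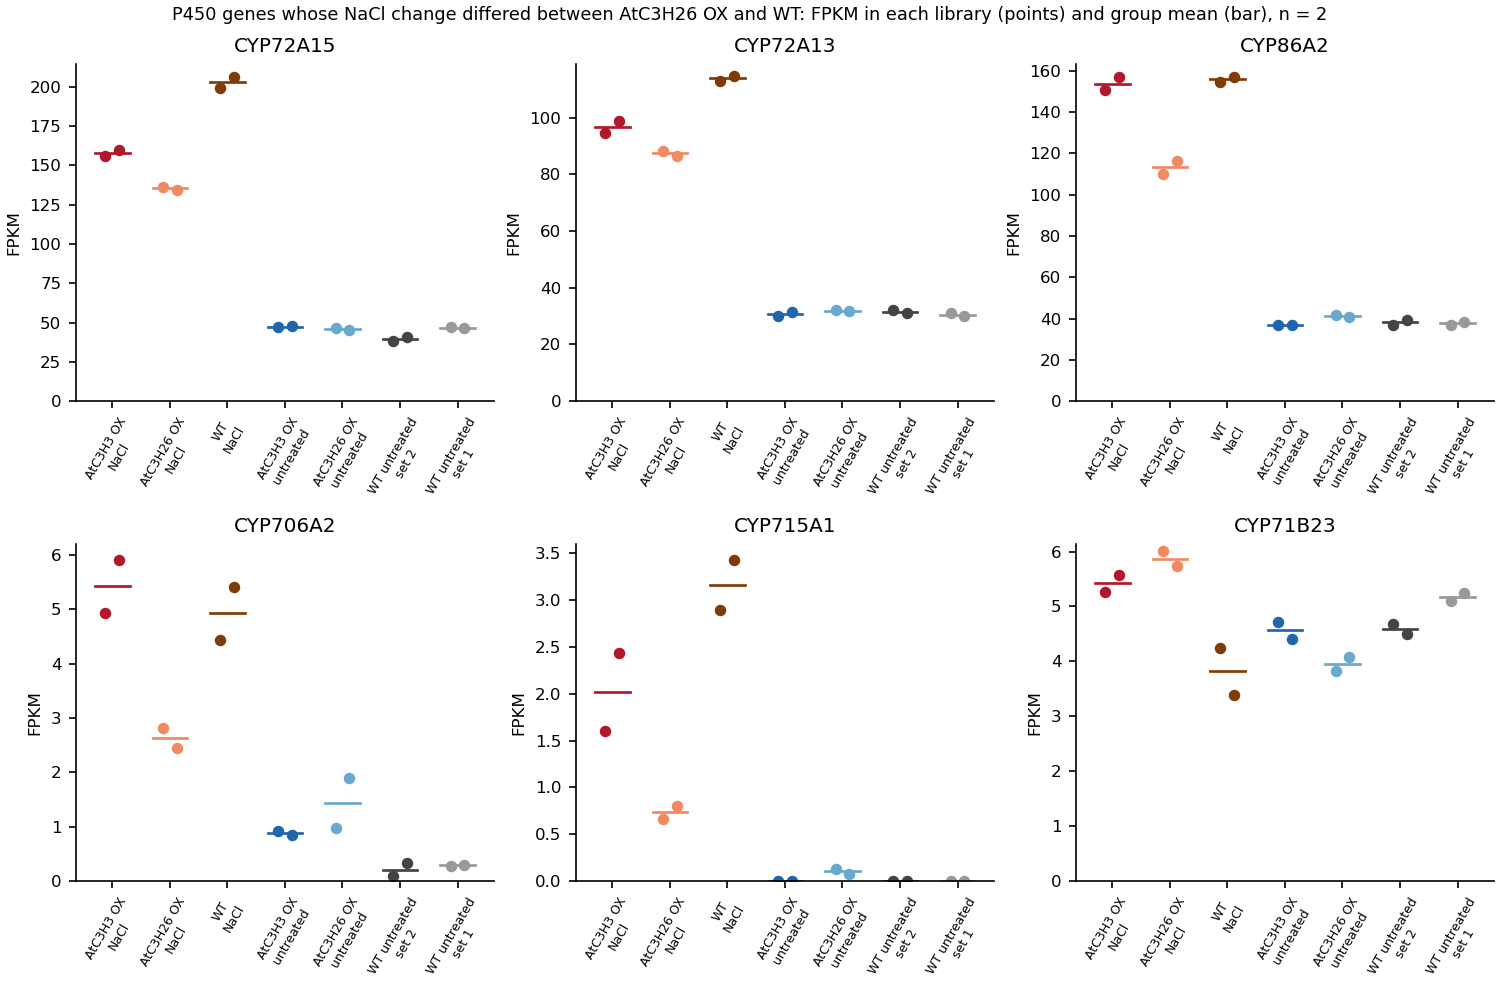
The plot of genes with an interaction shows FPKM in each library (points, with bars for means of 2) by group for the 6 P450 genes called for the AtC3H26 OX interaction. For CYP715A1 the difference is a description. The AtC3H26 OX points with NaCl lie under those of WT with NaCl in the panels of CYP72A15, CYP72A13, CYP86A2, CYP706A2 and CYP715A1 and above them in that of CYP71B23.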

How the data were processed

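RNA was sequenced as directional paired-end libraries, 2 in each of 7 groups. Per the labels and the methods, the authors trimmed reads, aligned them with TopHat to TAIR10 and estimated FPKM with Cufflinks; versions and strand settings are not given in the sources used here. The deposited FPKM values are not quantile normalized (upper quartiles of 18.2 to 20.2) and sum to between 665439 and 729899 FPKM a library. They hold no counts, so no count test or depth-based interval was possible.

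The 129 P450 genes and all lists were chosen with earlier results of these data known. The tables of the 14 libraries were joined by gene; names, chromosomes and gene order came from RefSeq, in which all 129 matched, and no sequence is shown. limma 3.58.1 (R 4.3.3) with a trended variance was run on log2(FPKM + 1) separately for each comparison, over all genes that reached 1 FPKM in 2 or more of its libraries, with Benjamini-Hochberg adjustment over all genes tested and a call at adjusted p under 0.05. It was tested on simulated data. Both untreated WT sets formed 1 group of 4. Interactions were the NaCl change in a line minus that in WT. Genes named in the text were up to 8 a direction in each comparison with the largest fold change and no overlap between groups, the 10 most abundant, up to 4 in each role list and those at 0 in a whole group, and those nearest to the FPKM minimum; others were named after their values were seen, to complete a list, run or subfamily. Alternatives were a pseudocount of 0.1, no filter, quantile normalization, 1 fit of all 14 libraries, a replicate block, each WT set alone and each library left out.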

Additional observations from a re-analysis of the deposited data

Results flagged for a closer look

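The NaCl change of 6 P450 genes differed between AtC3H26 OX and WT by a test of the difference itself (limma interaction on log2(FPKM + 1), adjusted p under 0.05). The differences were -0.42 for CYP72A13, -0.67 for CYP72A15, -0.58 for CYP86A2, -1.65 for CYP706A2, -1.40 for CYP715A1 and 0.76 for CYP71B23. Of the groups in that test CYP715A1 reached 1 FPKM only in WT with NaCl, so its value is a description. CYP706A2 in the 4 untreated WT libraries had 1 value, 0.0843 FPKM, set apart from the others at 0.282 to 0.321 FPKM; 73 genes were examined in this way and chance sets apart about 1 group in 20.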

How the results depend on the processing

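No call named for a comparison changed direction in that comparison under any alternative run. The counts of genes called stayed within 1.5 times for the NaCl comparisons of both lines under every alternative, and for WT except without 1 of its NaCl libraries. One fit of all 14 libraries called 13 genes in AtC3H3 OX against WT with NaCl, 36 in AtC3H3 OX and 21 in AtC3H26 OX against untreated WT, 36 between the WT sets, and 17 and 20 interactions for AtC3H3 OX and AtC3H26 OX. Among all genes that fit called 360 higher and 281 lower of 19642 in AtC3H3 OX against WT with NaCl. Against untreated WT it called 1291 and 1230 of 20056 in AtC3H3 OX, and 1449 and 2214 of 20174 in AtC3H26 OX. Between the sets it called 1251 and 2654 of 19783. For the interactions it called 625 and 621 of 20797, and 1128 and 1044 of 20878. With set 1 alone the P450 counts were 5 for untreated AtC3H3 OX, 9 for untreated AtC3H26 OX, and 6 and 18 interactions for the lines in the same order. With set 2 alone they were 36, 15, 21 and 15. In untreated AtC3H26 OX, CYP706A1 was called in opposite directions against the sets (-0.28 against set 1 and 0.54 against set 2), as was CYP81F4 for the AtC3H26 OX interaction (-0.26 and 0.28); neither was called with both sets together. With no filter on low values, 0 P450 genes were called in AtC3H3 OX against WT with NaCl by limma (39 at an unadjusted p under 0.05), beside 24 higher and 32 lower of 26296 genes. In AtC3H26 OX against WT with NaCl 8 were called, beside 224 and 453 of 26364. Between the sets 11 were called, beside 272 and 878 of 26074. Quantile normalization gave 2 for untreated AtC3H26 OX, beside 197 and 155 of 20174. A pseudocount of 0.1 gave 2 AtC3H26 OX interactions, beside 119 and 103 of 20878. The cause of these changes was not tested.

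Replicate numbers did not pair the samples (r of replicate differences between groups from -0.057 to 0.097 over 17478 genes). With a replicate block the counts were 83, 89 and 73 for NaCl in AtC3H3 OX, AtC3H26 OX and WT, 5 and 10 for the lines against WT with NaCl, 0 and 0 against untreated WT by limma (20 and 14 at an unadjusted p under 0.05), 17 between the sets, and 0 and 3 for the interactions (30 and 25 at an unadjusted p under 0.05). Among all genes tested (19642 to 20878 a comparison), that fit called 6288 higher and 5989 lower for NaCl in AtC3H3 OX. In AtC3H26 OX it called 5848 and 5258, and in WT 4758 and 4627. Against WT with NaCl it called 268 and 275 for AtC3H3 OX and 370 and 724 for AtC3H26 OX. Against untreated WT these were 3 and 2, and 46 and 35. Between the sets they were 589 and 1502, and for the interactions 1 and 3, and 71 and 94.

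Leaving out 1 library at a time left fewer samples and gave 62 to 68 genes for NaCl in AtC3H3 OX, 70 to 74 in AtC3H26 OX and 49 to 80 in WT, 1 to 5 and 0 to 14 for AtC3H3 OX and AtC3H26 OX against WT with NaCl, 0 to 0 and 0 to 1 against untreated WT, 7 to 19 between the sets, and 0 to 0 and 0 to 5 for the interactions. A library left alone in its group was assumed to vary like the others. Values near the 1 FPKM minimum, such as those of CYP82G1 and CYP715A1, are the least certain, since their depth is unknown.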
